A study of Homo sapiens with 92 samples.

Results

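Heparan sulfate is a sulfated sugar chain that cells attach to core proteins at their surface and in the matrix, where it holds growth factors, chemokines, morphogens and proteases. The syndecans (SDC1 to SDC4), which span the membrane, and the glypicans, which are tied to it by a lipid anchor, are the main carriers at the cell surface. NDST1 makes the first change to the chain by replacing acetyl with sulfate groups, and HS3ST1 and HS3ST3A1 make one of the last by adding the rare 3-O-sulfate, HS3ST1 in a form that binds antithrombin and HS3ST3A1 in a form that herpes simplex virus glycoprotein D binds. DSEL is a relative of the dermatan sulfate epimerase and acts on the sister chain, chondroitin and dermatan sulfate, and not on heparan sulfate. The 10 genes described here, HS3ST1, HS3ST3A1, NDST1, DSEL, SDC1, SDC2, SDC3, SDC4, GPC1 and GPC6, are 10 of the 48905 genes kept from the count tables, found by gene name. They were chosen by their measured converted reads over time and with dTAGV-1 against DMSO, so their values in those comparisons, and whether they passed the threshold used for all genes, are given as a description without p-values. Adjusted p-values of members are printed only for comparisons that the choice did not use as such. These share vehicle libraries with the choice, so such p-values are not independent of it. All 10 passed the filter on low counts in every fit.

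The study asked what NIPBL, the factor that loads cohesin and drives its loop extrusion, does for transcription as cells leave mitosis and in cells that no longer divide. New RNA was measured by SLAM-seq: the nucleoside 4sU (100 µM in RPE-1 cells, a dose not given for the other cells in the sources used here) is taken up into RNA made during the label, is read as T-to-C conversions, and reads with such conversions are counted per gene. The 92 libraries fall into 32 groups. Most came from NIPBL-D7, 1 clone of hTERT RPE-1 (an immortalised retinal pigment epithelial line), whose genotype is given as mGreenLantern-P2A-FKBP12(F36V)-NIPBL, so that dTAGV-1 directs the tagged protein to degradation. All RPE-1 groups, vehicle included, carried this tag, went through thymidine (2 mM) and were held in mitosis with nocodazole (20 ng/ml). In the mitosis series DMSO or dTAGV-1 was present for 120 min of that arrest and on through release, with a 15 min label at 0, 30, 60, 90 and 120 min (3 or 4 libraries per arm and time) and at 4, 6 and 8 h (2 each), and with a 120 min label at 120 min (3 each). In the release series drug or vehicle was added only when cells were released, with a 15 min label at 30, 60, 90 and 120 min and a 120 min label at 120 min (3 libraries each). Neurons and cardiomyocytes, derived per their titles from WTC11 induced pluripotent stem cells, received DMSO or dTAGV-1 for 4 h with a 120 min label (2 libraries each). The cell line and genotype fields of these 8 libraries repeat the RPE-1 entries, and the titles were followed here. Neither name nor label says that libraries of a group came from separate cultures, so p-values measure the spread between these libraries, which may be technical.

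Libraries held 0.419 to 35.4 M converted reads (M, 1000000 reads), which were 2.44 to 38.9% of all reads. Converted reads are given as CPM (counts per 1000000 converted reads), scaled within the set of libraries that were fitted together, so levels can be compared between libraries of one set, not between sets and not between genes, whose transcript lengths were not used. Fold changes are log2 with their standard error (SE). A gene is said to be called where its adjusted p over all genes tested was under 0.05. Arms or groups are said to be apart where the ranges of their CPM did not overlap. The share of all genes that were apart was not counted. With few libraries per arm, ranges can be apart without a difference between the arms. Replicate 3 of the DMSO libraries at 120 min with the short label stood apart: 10 genes took 13.5% of its 0.644 M converted reads, against 3.44 to 3.75% in the other replicates. In RPE-1 libraries with the 120 min label, RPE65, a defining gene of retinal pigment epithelium, was at 0 in every library of 3 of the 4 groups.

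With dTAGV-1, 3 genes of the set, HS3ST1, DSEL and SDC2, had estimates below vehicle in each of the 7 drug comparisons. Each was called in 5 of them, where 0.718 to 19.8% of all genes tested were called in a single comparison. How many of all genes were below vehicle in all 7, or called in 5, was not counted. These comparisons chose the genes, so the counts are a description only. HS3ST1 and DSEL lie at chr4:11393150-11429765 and chr18:67506582-67516980, both on the minus strand (hg38). The sequences around the RefSeq start sites of HS3ST1 and DSEL are printed because both genes were lower with the drug in the same RPE-1 comparisons, and that of HS3ST3A1 because it encodes an enzyme of the same kind as HS3ST1 whose estimates lay nearer to vehicle, from -0.52 to 0.31. Each is 250 bases before to 50 bases after the start, from RefSeq on GRCh38.p14, minus strand, at chr4:11428845-11429144, chr18:67516671-67516970 and chr17:13601880-13602179. Capitals mark matches, on either strand and with overlaps allowed, to GGGCGG (the SP and KLF factors), TGANTCA (AP-1), GGAATG (TEAD), TATAAA (the TATA box), CACGTG (E-box) and TGACGTCA (CRE).
HS3ST1: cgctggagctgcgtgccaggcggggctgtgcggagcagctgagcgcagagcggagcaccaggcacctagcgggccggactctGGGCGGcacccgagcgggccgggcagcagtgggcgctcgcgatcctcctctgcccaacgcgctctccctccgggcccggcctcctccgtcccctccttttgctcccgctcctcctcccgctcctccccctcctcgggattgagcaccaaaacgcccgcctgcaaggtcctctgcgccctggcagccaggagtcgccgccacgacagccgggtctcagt
DSEL: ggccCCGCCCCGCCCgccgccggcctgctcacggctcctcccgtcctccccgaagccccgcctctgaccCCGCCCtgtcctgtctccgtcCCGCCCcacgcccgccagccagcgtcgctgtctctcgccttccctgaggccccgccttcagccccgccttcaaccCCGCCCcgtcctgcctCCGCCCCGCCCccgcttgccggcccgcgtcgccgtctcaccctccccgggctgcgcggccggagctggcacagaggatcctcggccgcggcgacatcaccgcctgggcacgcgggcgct
HS3ST3A1: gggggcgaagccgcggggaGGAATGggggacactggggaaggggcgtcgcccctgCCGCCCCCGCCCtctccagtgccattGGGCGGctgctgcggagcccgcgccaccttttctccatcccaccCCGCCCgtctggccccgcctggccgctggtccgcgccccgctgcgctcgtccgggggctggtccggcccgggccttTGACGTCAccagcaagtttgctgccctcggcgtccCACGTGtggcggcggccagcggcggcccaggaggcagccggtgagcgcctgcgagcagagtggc
The HS3ST1 window is 73.0% G and C and holds 1 match to GGGCGG, and the DSEL window is 79.0% G and C and holds 7. The HS3ST3A1 window, at 76.3% G and C, lies between them, and the median of all windows of this length is 58.7%. GGGCGG is in 44.9% of the 34796 windows of this length. The HS3ST3A1 window holds 4 matches to GGGCGG and 1 each to the TEAD, E-box and CRE motifs, which are in 14.0%, 7.21% and 1.84% of all windows. Neither the HS3ST1 nor the DSEL window holds these motifs, and none of the 3 windows holds that of AP-1 (7.73% of all windows) or the TATA box (11.6%). The RefSeq start of HS3ST1 lies 871 bases inside the gene's start in the count tables, and that of DSEL 260 bases inside.

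HS3ST1 had the largest difference between arms of the 10 genes in each of the 5 RPE-1 comparisons. In the mitosis series its converted reads were few at 0 min, with 2.42, 3.02 and 5.46 CPM in DMSO and 0.732, 0.665, 1.06 and 3.16 CPM in dTAGV-1, each resting on 1 to 6 reads. At 120 min HS3ST1 stood at 21.1, 49.4, 8.32 and 15.1 CPM in DMSO and 2.84, 1.98 and 1.48 CPM in dTAGV-1. The arms overlapped at 0 and 60 min and were apart at 30, 90 and 120 min, and by 120 min every DMSO library lay above all DMSO libraries at 0 min. The DMSO values at 120 min were widely spread, and the lowest of them, 8.32 CPM, was the library that stood apart, with 5 reads. The log2 difference was -1.44 ± 0.72 at 0 min, -1.19 ± 0.72 at 30 min, -0.81 ± 0.51 at 60 min, -2.51 ± 0.51 at 90 min and -3.51 ± 0.54 at 120 min, and -2.01 ± 0.29 as the mean over 30 to 120 min.

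Over 30 to 120 min HS3ST1 was the 1 member called of 10, where 1.25% of the 14206 genes tested were called. By time it was called at 90 min (0.366% of genes) and 120 min (0.95%), and at 0, 30 and 60 min 0% of genes were called. The median change of the 10 members was -0.14, against 0.02 for all genes.

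Later after release, HS3ST1 stood at 12.9 and 12.0 CPM in DMSO and 1.08 and 2.53 CPM in dTAGV-1 at 4 h. At 8 h it stood at 17.4 and 20.7 CPM and 3.72 and 3.75 CPM. The arms were apart at each of 4, 6 and 8 h, and both arms were higher at 8 h than at 4 h. The mean log2 difference over these times was -2.57 ± 0.18.

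With the 120 min label, which gathers far more reads per gene, HS3ST1 of the mitosis series stood at 24.8, 13.0 and 12.7 CPM in DMSO (151 to 363 reads) and 2.10, 1.97 and 0.821 CPM in dTAGV-1 (6 to 34 reads), a difference of -3.28 ± 0.34. HS3ST1 of the release series stood at 13.1, 10.9 and 15.5 CPM in DMSO and 2.79, 2.58 and 3.17 CPM in dTAGV-1, a difference of -2.19 ± 0.32. The arms did not overlap in either series. The share of HS3ST1 reads that carried conversions, which needs no scaling between libraries, was 64.1% in DMSO and 36.2% in dTAGV-1 in the mitosis series, and 58.2% and 38.8% in the release series, libraries pooled.

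Marker lists also differed between the arms with the long label. The 6 markers of retinal pigment epithelium, the cells' own type, summed to 284 to 304 CPM in DMSO and 361 to 457 CPM in dTAGV-1 of the mitosis series, and to 340.0 to 383 and 445 to 478 CPM in the release series, higher with the drug and apart in both. The 7 neuronal markers, which RPE-1 cells also transcribe in part, summed to 265 to 383 CPM in DMSO and 144 to 218 CPM in dTAGV-1 of the mitosis series, and to 809 to 1868 and 905 to 1124 CPM, with overlap, in the release series. With the short label at 120 min the retinal pigment epithelium list summed to 296 to 340.0 and 425 to 598 CPM in the mitosis series and to 310.1 to 345 and 389 to 468 CPM in the release series. There RPE65 and RLBP1 were at 0 in both arms of the release series, and RPE65 in DMSO of the mitosis series. The part of these lists in the differences of the members was not tested.

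With drug from release and the short label, HS3ST1 at 30 min stood at 9.35, 8.31 and 9.00 CPM in DMSO and 7.67, 7.70 and 2.46 CPM in dTAGV-1. At 120 min it stood at 11.8, 10.8 and 12.2 CPM and 2.10, 2.76 and 2.94 CPM. The dTAGV-1 libraries lay below every DMSO library at each of the 4 times, at 30 min by a small margin in 2 of the 3. The third, at 2.46 CPM, is the library with the fewest converted reads of all 92 and rests on 1 read of HS3ST1, against 16 and 25 reads in the others. The log2 difference was -0.33 ± 0.33 at 30 min, -1.50 ± 0.32 at 60 min, -1.47 ± 0.32 at 90 min and -2.08 ± 0.32 at 120 min.

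DSEL, the epimerase-like gene, was close to vehicle up to 60 min of the mitosis series and lower at 90 min and at 4 to 8 h. Its mean log2 difference over 30 to 120 min was -0.31, and DSEL was not called there, at 90 min or at 120 min. At 60 min its 4 DMSO libraries held 63.1 to 83.6 CPM and its 4 dTAGV-1 libraries 55.3 to 85.6 CPM, and the arms overlapped. At 90 min DSEL stood at 75.2, 57.2, 81.5 and 90.5 CPM in DMSO and 54.4, 48.4, 50.4 and 44.1 CPM in dTAGV-1, with the arms apart. At 4 h it stood at 60.1 and 76.4 CPM and 19.6 and 17.4 CPM. The log2 difference of DSEL went from -0.05 ± 0.19 at 60 min and -0.62 ± 0.20 at 90 min to -1.87 ± 0.20 at 4 h, -1.74 ± 0.21 at 6 h and -1.52 ± 0.20 at 8 h. Its vehicle level also declined between 4 and 8 h, to 37.3 and 30.5 CPM.

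With drug from release, DSEL at 30 min stood at 100.0, 82.4 and 94.5 CPM in DMSO and 81.5, 72.4 and 73.8 CPM in dTAGV-1. At 120 min it stood at 64.9, 60.6 and 77.9 CPM and 37.9, 32.3 and 37.0 CPM. The arms were apart at each time and the gap widened, from -0.27 ± 0.16 at 30 min to -0.93 ± 0.15 at 120 min. With the long label the differences were -1.08 ± 0.16 (mitosis series) and -1.38 ± 0.16 (release series). The share of DSEL reads with conversions was 20.1% in DMSO and 9.70% in dTAGV-1 in the release series.

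SDC2, the syndecan typical of mesenchymal cells, at chr8:96493351-96611780 on the plus strand, differed little between arms at 0 to 120 min of the mitosis series and more in the release series, a contrast between series that was not tested. At 120 min of the mitosis series SDC2 stood at 36.2, 69.1, 43.3 and 56.7 CPM in DMSO and 39.3, 57.9 and 33.5 CPM in dTAGV-1, and the arms overlapped at each of the 5 times. At 4 h it stood at 173 and 177 CPM and 85.5 and 72.0 CPM, and at 8 h at 143 and 129 CPM and 93.7 and 88.4 CPM. The arms were apart at 4, 6 and 8 h, with log2 differences of -1.14 ± 0.13, -1.15 ± 0.13 and -0.58 ± 0.13.

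At these hours the marker lists differed between arms too. The sum of the retinal pigment epithelium list was higher with the drug and apart at each time, at 338 to 405 CPM in DMSO and 492 to 498 CPM in dTAGV-1 at 4 h and 292 and 376 to 397 CPM at 8 h. Of this list RPE65 and RLBP1 were at 0 in both arms at 4 h and in DMSO at 6 h. RPE65 was also at 0 in dTAGV-1 at 6 h and in DMSO at 8 h. The neuronal list summed to 1398 to 1994 and 1102 to 1209 CPM at 4 h, overlapped at 6 h and was higher with the drug at 8 h (961 to 1084 and 1098 to 1204 CPM). At 4 h the 4 markers of neural progenitors and glia summed to 1182 to 1196 and 811 to 868 CPM, with GFAP and HES5 at 0, and the 5 of fibroblasts and smooth muscle to 135 to 139 and 191 to 201 CPM. Both of these lists overlapped between arms at 8 h. Their part in the differences of HS3ST1, DSEL and SDC2 was not tested.

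With drug from release, SDC2 at 30 min stood at 150.4, 184 and 191 CPM in DMSO and 164, 170.0 and 118 CPM in dTAGV-1, with overlap. At 120 min it stood at 196, 219.9 and 202 CPM and 75.1, 78.9 and 95.2 CPM, with none. The log2 difference was -0.18 ± 0.15, -0.83 ± 0.15, -1.04 ± 0.14 and -1.30 ± 0.15 from 30 to 120 min. With the long label SDC2 stood at 165, 215 and 187 CPM in DMSO and 59.9, 63.0 and 71.8 CPM in dTAGV-1 of the release series, a difference of -1.54 ± 0.22, and conversions were on 47.0% and 25.5% of its reads. In the mitosis series the long label gave 65.7, 45.7 and 55.2 CPM and 45.6, 25.4 and 23.4 CPM for SDC2, apart by a narrow margin and not called, with a difference of -0.81 ± 0.22. With the replicate number as a block SDC2 was called there too.

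**Figure D1:**
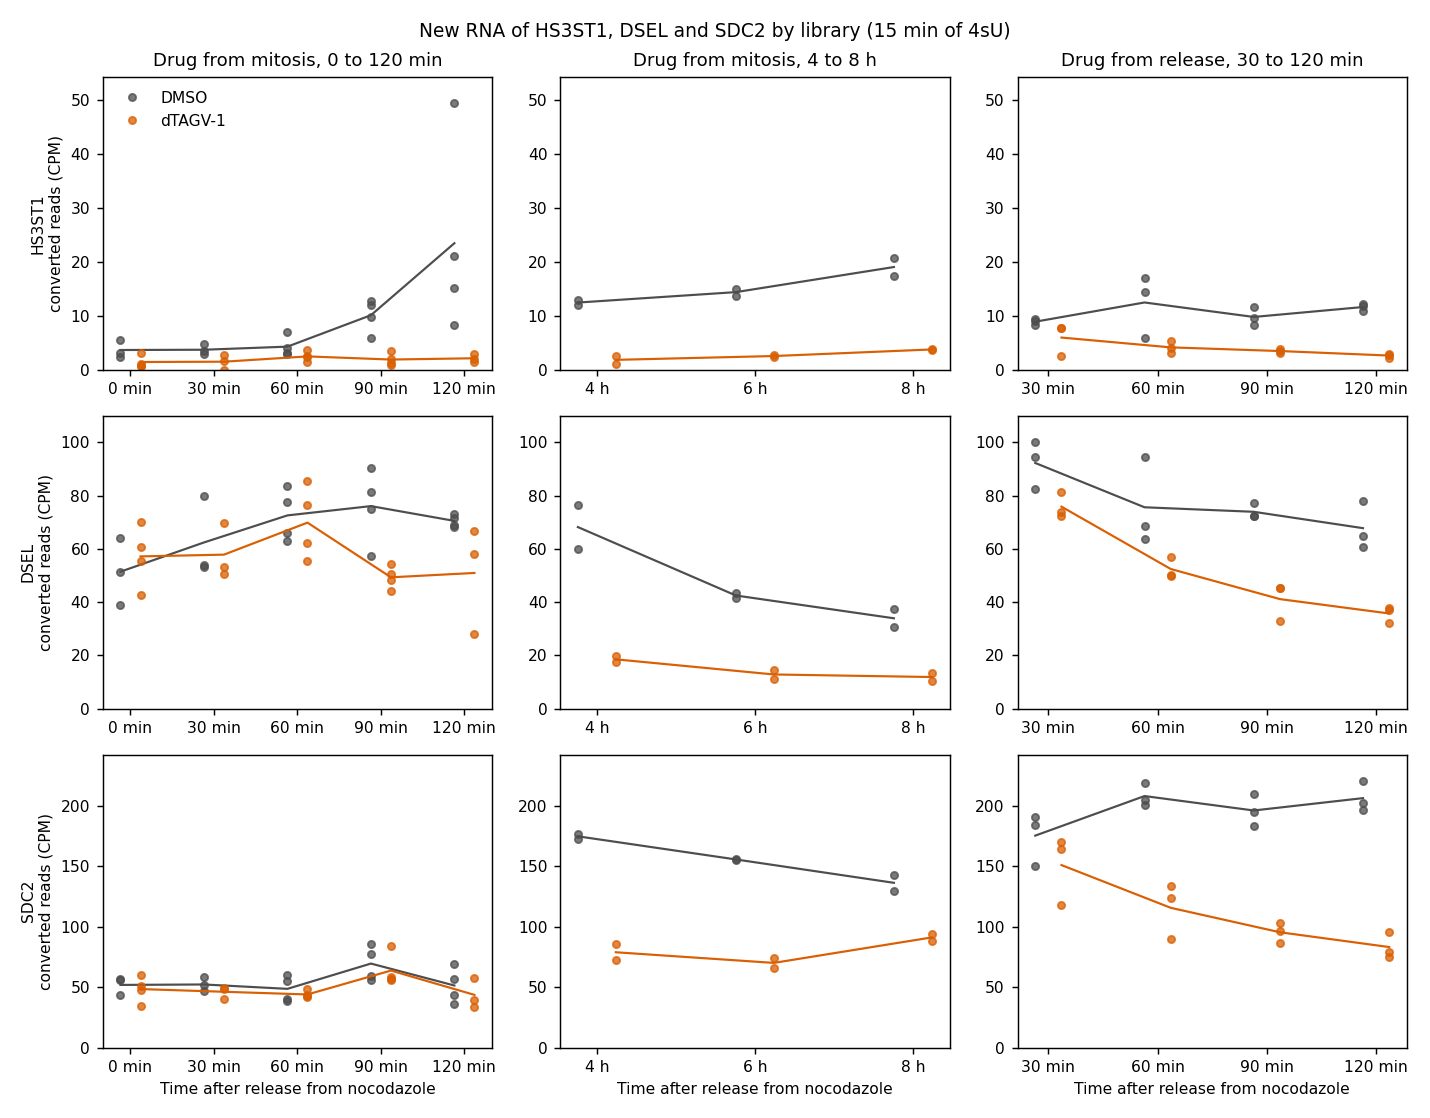
Converted reads (CPM, linear axis from 0) of HS3ST1, DSEL and SDC2 by library against time after release, for the 15 min label in the mitosis series at 0 to 120 min, the mitosis series at 4 to 8 h and the release series, in DMSO (grey) and dTAGV-1 (orange), with points for libraries and lines through the means. The columns were scaled separately, and the arms of SDC2 overlap through 120 min of the mitosis series but are apart from 60 min in the release series.

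In calls, HS3ST1, DSEL and SDC2 were the 3 members called in the release series over 30 to 120 min, where 2.28% of the 13927 genes tested were called. By time, none was called at 30 min (0% of genes), SDC2 at 60 min (0.0933%), and all 3 at 90 min (0.632%) and 120 min (1.4%). The same 3 genes were called with the long label in the release series, where 0.718% of 16571 genes were called, and HS3ST1 and DSEL in the mitosis series, where 2.46% were. Without the replicates numbered 2, none of the 10 was called in the release series with the long label, and of the 10 HS3ST1 alone in the mitosis series. Over all genes 2 of 16853 were then called lower in the release series, against 107 of 16571 with all replicates, and 76 against 339 in the mitosis series, so most calls over the whole table were lost as well. Without those numbered 1, HS3ST1 was not called in the release series and SDC2 was called in the mitosis series. When all reads were counted, older RNA included, HS3ST1 alone of the 10 was called in either series with the long label, and HS3ST1 and SDC2 in the release series over 30 to 120 min. Over all genes 63 (mitosis) and 22 (release) of 22210 were then called lower with the long label, and 73 of 23245 over 30 to 120 min. At 4 to 8 h, 5 members were called, these 3 lower and HS3ST3A1 and GPC6 higher, where 19.8% of 14570 genes were called. By time, HS3ST1, DSEL and SDC2 were called at each of 4, 6 and 8 h, GPC6 also at 4 h and HS3ST3A1 also at 8 h, where 5.39%, 7.09% and 8.14% of genes were called.

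HS3ST3A1, at chr17:13495689-13601927, was below vehicle in 6 of the 7 comparisons, by less than HS3ST1 in each, and was called in none of the 6. For the 120 min label it stood at 390.3, 436 and 371 CPM in DMSO and 398, 302 and 209 CPM in dTAGV-1 of the mitosis series (-0.40 ± 0.20), with overlap, and the difference was -0.25 ± 0.20 in the release series and -0.52 ± 0.19 in neurons. At 4 to 8 h it was higher. At 8 h it stood at 333 and 292 CPM in DMSO and 536 and 401 CPM in dTAGV-1, higher by 0.58 ± 0.15, while at 4 h the arms overlapped. At 120 min of the release series HS3ST3A1 stood at 479, 436 and 529 CPM and 489.7, 450.2 and 535 CPM, a difference of 0.03 ± 0.11. The mean over 4 to 8 h was 0.31 ± 0.09, and that over 30 to 120 min of the release series -0.03 ± 0.05. The call at 4 to 8 h was lost without replicate 1 of the dTAGV-1 libraries at 4, 6 or 8 h or replicate 2 of the DMSO libraries at 8 h. That call was also lost when all reads were counted and when all reads were used as library size.

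GPC6, a glypican whose gene spans 1180560 bases at chr13:93226842-94407401, was the other member called higher, although 5 of its 7 estimates were below vehicle, the lowest at -0.18. At 4 h it stood at 641 and 803 CPM in DMSO and 1068 and 1079 CPM in dTAGV-1, with the arms apart, a difference of 0.57 ± 0.16. At 6 h the arms of GPC6 overlapped (0.05 ± 0.16), and the call over 4 to 8 h was lost without replicate 1 of the DMSO libraries at 4, 6 or 8 h, either dTAGV-1 library at 4 h, replicate 2 of those at 6 h or replicate 1 of those at 8 h. That call was also lost when all reads were counted and when all reads were used as library size. At 120 min of the release series the difference was 0.06 ± 0.23.

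SDC1, SDC3, SDC4, GPC1 and NDST1 were called in none of the 7 drug comparisons. NDST1, the enzyme that starts the sulfation of the chain, at chr5:150485818-150558211, kept closest to vehicle, from -0.16 to 0.15 over the 7 comparisons. At 120 min of the release series with the long label NDST1 stood at 485, 473 and 354 CPM in DMSO and 409.8, 424 and 538 CPM in dTAGV-1, with overlap. SDC4, the syndecan of focal adhesions (chr20:45325288-45348424), ranged from -0.02 to 0.49, SDC3, first known from neural tissue (chr1:30869467-30908761), from -0.44 to 0.11, and GPC1 (chr2:240435671-240468078) from -0.31 to 0.47. SDC1, the syndecan of epithelia (chr2:20200797-20225433), ranged from -0.69 to 0.17. Over the 7 members other than HS3ST1, DSEL and SDC2, the 49 values had a median of -0.03 and a range of -0.69 to 0.49.

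**Figure D2:**
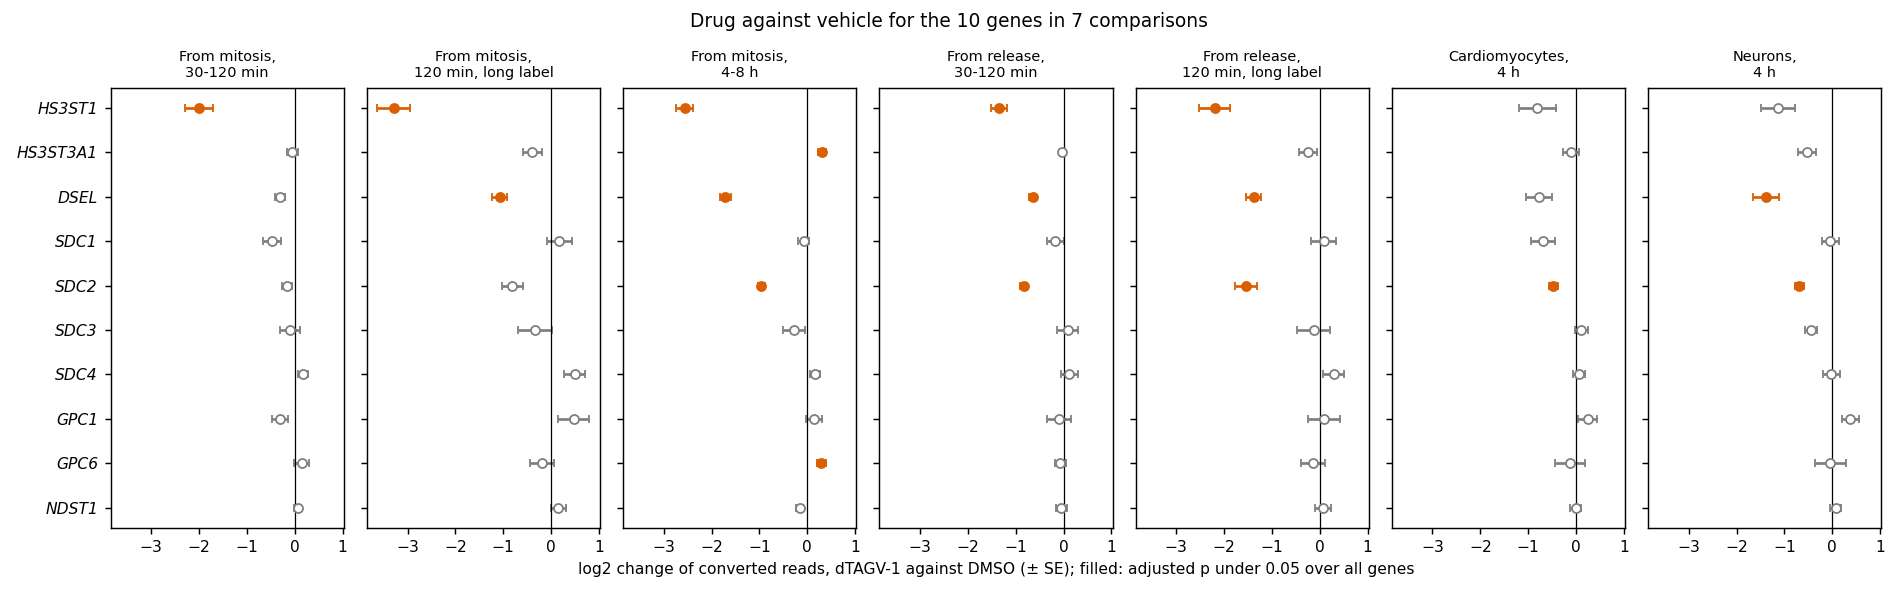
The log2 change of converted reads with dTAGV-1 against DMSO (points, with bars of ± 1 SE) of the 10 genes in 7 comparisons, filled where the adjusted p over all genes was under 0.05. HS3ST1, DSEL and SDC2 lie left of 0 in every panel, HS3ST1 at -3.28 in the mitosis series with the long label, and the other genes lie between -0.69 and 0.49.

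In the 2 differentiated cell types the arms had 2 libraries each. In neurons DSEL stood at 34.6 and 33.4 CPM in DMSO and 13.6 and 12.5 CPM in dTAGV-1 (-1.38 ± 0.27), and SDC2 at 269 and 263 CPM and 176 and 155 CPM (-0.69 ± 0.09). HS3ST1 stood at 9.34 and 6.65 CPM and 2.65 and 4.48 CPM (-1.14 ± 0.36), apart but not called. DSEL and SDC2 were the 2 members called, where 2.24% of 18645 genes were called. The call of DSEL was lost without any 1 of the 4 neuron libraries, where 83 to 121 genes were called lower in place of 310, and with the replicate number as a block, where 134 were.

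In cardiomyocytes SDC2 stood at 91.7 and 88.6 CPM in DMSO and 61.9 and 67.8 CPM in dTAGV-1 (-0.48 ± 0.09) and was the 1 member called, where 4.83% of genes were called. The call was lost with the replicate number as a block and when cardiomyocytes were fitted alone, where 287 and 239 genes were called lower in place of 680. DSEL stood at 30.8 and 15.2 CPM and 12.5 and 14.5 CPM (-0.77 ± 0.27), and HS3ST1 at 5.19 and 3.37 CPM and 1.67 and 3.22 CPM (-0.81 ± 0.39). For both, 1 DMSO library lay just above the higher dTAGV-1 library. Markers of other cells moved with the drug in these cultures: the summed converted reads of 5 markers of fibroblasts and smooth muscle were 582 to 609.8 CPM in DMSO and 318 to 358 CPM in dTAGV-1, and those of 4 endothelial markers 139 to 144 and 60.6 to 80.7 CPM. The 7 cardiomyocyte markers summed to 3793 to 4098 and 4118 to 4413 CPM, and no marker of these lists was at 0. Their part in the lower SDC2 was not tested, and in such bulk libraries fewer cells of a type and less RNA per cell cannot be told apart. In neurons the 7 neuronal markers summed to 2112 to 2194 CPM in DMSO and 2010.1 to 2080.4 CPM in dTAGV-1, while the 7 cardiomyocyte markers summed to 62.2 to 64.8 and 27.6 to 36.2 CPM, with none at 0. The part of the latter in the lower DSEL and SDC2 of neurons was not tested.

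Of 76 other genes of these pathways, from linker synthesis to breakdown, between 57 and 70 passed the filter in the drug comparisons. Over 30 to 120 min of the mitosis series 1 of 61 tested was called (1.25% of all genes), PXYLP1, a phosphatase that acts on the linker xylose (-0.57 ± 0.14, adjusted p = 0.0297). At 4 to 8 h, 17 of 57 were called, 8 lower and 9 higher, where 10.7% of all genes were called lower and 9.07% higher. The largest falls were in CHST15, which adds a further sulfate to chondroitin (-1.54 ± 0.09, adjusted p = 1.52e-09), SULF1, which removes 6-O-sulfate from heparan sulfate outside the cell (-1.46 ± 0.23, adjusted p = 0.00013), and COL18A1, a basement membrane core protein (-0.70 ± 0.14, adjusted p = 0.00185). The largest rises were in HS6ST3, a 6-O-sulfotransferase (1.09 ± 0.24, adjusted p = 0.00384), XYLT1, which starts the linker (0.69 ± 0.07, adjusted p = 1.99e-06), and SDCBP, the syndecan-binding protein syntenin (0.61 ± 0.09, adjusted p = 0.000105). By list, 4 of the 10 tested genes for heparan sulfate polymerases and modification rose, among them EXT1 and EXT2, which build the chain, and 1 fell, with a list median of 0.20 against 0.01 for all genes. The median of all 57 was 0.00.

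In the release series 3 of 58 other pathway genes were called, all lower, where 1.81% of all genes were called lower: SULF1 (-0.77 ± 0.17, adjusted p = 0.00889), CHST15 (-0.56 ± 0.12, adjusted p = 0.00645) and CHST11, a chondroitin 4-O-sulfotransferase (-0.34 ± 0.07, adjusted p = 0.00544). With the long label SULF1 (-1.40 ± 0.32, adjusted p = 0.0312), CHST11 (-0.76 ± 0.18, adjusted p = 0.034) and CHSY1, a chondroitin synthase (-0.74 ± 0.12, adjusted p = 0.00362), fell in the mitosis series, 3 of 60, where 2.05% of all genes did. In the release series with the long label edgeR called 0 of 60 (0.718% of all genes), with 5 at an unadjusted p under 0.05, and DESeq2 called 4.

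In neurons 5 of 70 other pathway genes fell and 0 rose, where 1.66% of all genes fell and 0.574% rose. They included NRP1, a co-receptor of VEGF and semaphorins that can carry a glycosaminoglycan chain (-1.99 ± 0.12, adjusted p = 7.60e-06), HS3ST4, a 3-O-sulfotransferase of neurons (-1.12 ± 0.15, adjusted p = 0.0023), and NDST3 (-1.04 ± 0.18, adjusted p = 0.00916). In cardiomyocytes 6 of 70 fell and 1 rose, where 3.65% and 1.18% of all genes did. Those that fell included HS3ST5 (-1.85 ± 0.40, adjusted p = 0.0231), NDST3 (-1.16 ± 0.29, adjusted p = 0.0437) and CSGALNACT1, which starts chondroitin chains (-0.90 ± 0.21, adjusted p = 0.0309). HS3ST3B1, the near relative of HS3ST3A1, was the 1 that rose (0.66 ± 0.11, adjusted p = 0.00616).

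The genes around the 3 members were looked at within 500 kb of each start. Of 6 genes listed around HS3ST1, none is protein coding by RefSeq name and at most 2 were tested, with none called in the 7 drug comparisons, where HS3ST1 was called in 5. Of 13 around DSEL, also with no coding gene, at most 2 were tested. The transcript CTD-2541J13.1 was lower at 4 to 8 h (-2.08 ± 0.37, adjusted p = 0.000493) and in the release series with the long label (-1.38 ± 0.27, adjusted p = 0.0260). It was 1 of 2 tested in each, where 10.7% and 0.646% of all genes were called lower. RP11-638L3.1, which starts next to DSEL, was lower in neurons (-1.40 ± 0.26, adjusted p = 0.0156), the 1 tested there, where 1.66% of all genes were lower. Whether the counting used strand is not given in the sources used here, so reads of DSEL and of transcripts that overlap it cannot be told apart. Around SDC2, 3 of the 5 genes tested were lower at 4 to 8 h, where 10.7% of all genes were: GDF6, a growth factor of the BMP family (-2.92 ± 0.16, adjusted p = 5.30e-10), CPQ, a carboxypeptidase (-0.38 ± 0.09, adjusted p = 0.00625), and MTERF3, a mitochondrial transcription factor (-0.40 ± 0.12, adjusted p = 0.0221). Under the 120 min label of the mitosis series GDF6 (-1.53 ± 0.35, adjusted p = 0.0290) and MTERF3 (-0.61 ± 0.14, adjusted p = 0.0299) were lower, 2 of 6 tested, where 2.05% of all genes were. In neurons, where SDC2 was lower, the estimate of GDF6 was above vehicle and not called (0.89 ± 0.23, adjusted p = 0.0903). These 5 neighbours were chosen for mention after their values were seen. Most of the other members had called neighbours too. At 4 to 8 h, 2 were lower and 2 higher of 14 tested around NDST1, 1 and 1 of 9 around SDC1, and 2 higher of 12 around SDC4. Around GPC1 1 of 7 and around HS3ST3A1 1 of 2 were lower, with 0 of 4 called around SDC3 and 0 tested around GPC6.

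Without drug, members differed in how their converted reads moved as cells left mitosis. SDC4 went up first, from 142, 193 and 143 CPM at 0 min to 264, 264, 363 and 295 CPM at 60 min (0.90 ± 0.22) and 349, 294, 466 and 443 CPM at 120 min (1.28 ± 0.23), with no overlap. HS3ST3A1 stayed near its mitotic level of 89.2, 58.3 and 97.3 CPM until 60 min and stood at 188, 234, 282 and 262 CPM at 90 min (1.56 ± 0.24). HS3ST1 was higher than at 0 min by 1.53 ± 0.57 at 90 min and 2.80 ± 0.54 at 120 min. GPC6 went the other way, from 241, 362 and 399 CPM at 0 min to 138, 144, 196 and 163 CPM at 60 min (-1.06 ± 0.31), and stood at 187, 278, 126 and 258 CPM at 120 min.

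GPC1 was higher at 120 min by 0.97 ± 0.37, with overlapping values of 10.7, 21.1 and 12.7 CPM at 0 min and 21.7, 17.5, 46.6 and 33.2 CPM at 120 min. The highest of these was the library that stood apart, and without it the difference was 0.69 ± 0.37 and not called, nor was it without the replicates numbered 2 or 4. NDST1 (-0.02 ± 0.15) and SDC2 (0.00 ± 0.22) were near their mitotic level at 120 min. At 120 min, 4 members were called higher than at 0 min (HS3ST1, HS3ST3A1, SDC4 and GPC1), where 27.8% of 14206 genes were called. At 90 min HS3ST1, HS3ST3A1 and SDC4 were called (24.3% of genes), at 60 min SDC4 and GPC6 (35.9%), and at 30 min none (0%). These comparisons share the DMSO libraries at 120 min with the drug comparison at that time. Of the 61 other pathway genes 12 rose and 5 fell by 120 min, where 14.7% of all genes rose and 13.1% fell, with the largest rises in CHST11 (1.43 ± 0.29, adjusted p = 0.000342), CHPF2 (1.27 ± 0.27, adjusted p = 0.000514) and CHST3 (1.18 ± 0.16, adjusted p = 7.50e-07), all of chondroitin synthesis and sulfation, and the largest fall in HS6ST2 (-4.03 ± 1.13, adjusted p = 0.00705).

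**Figure D3:**
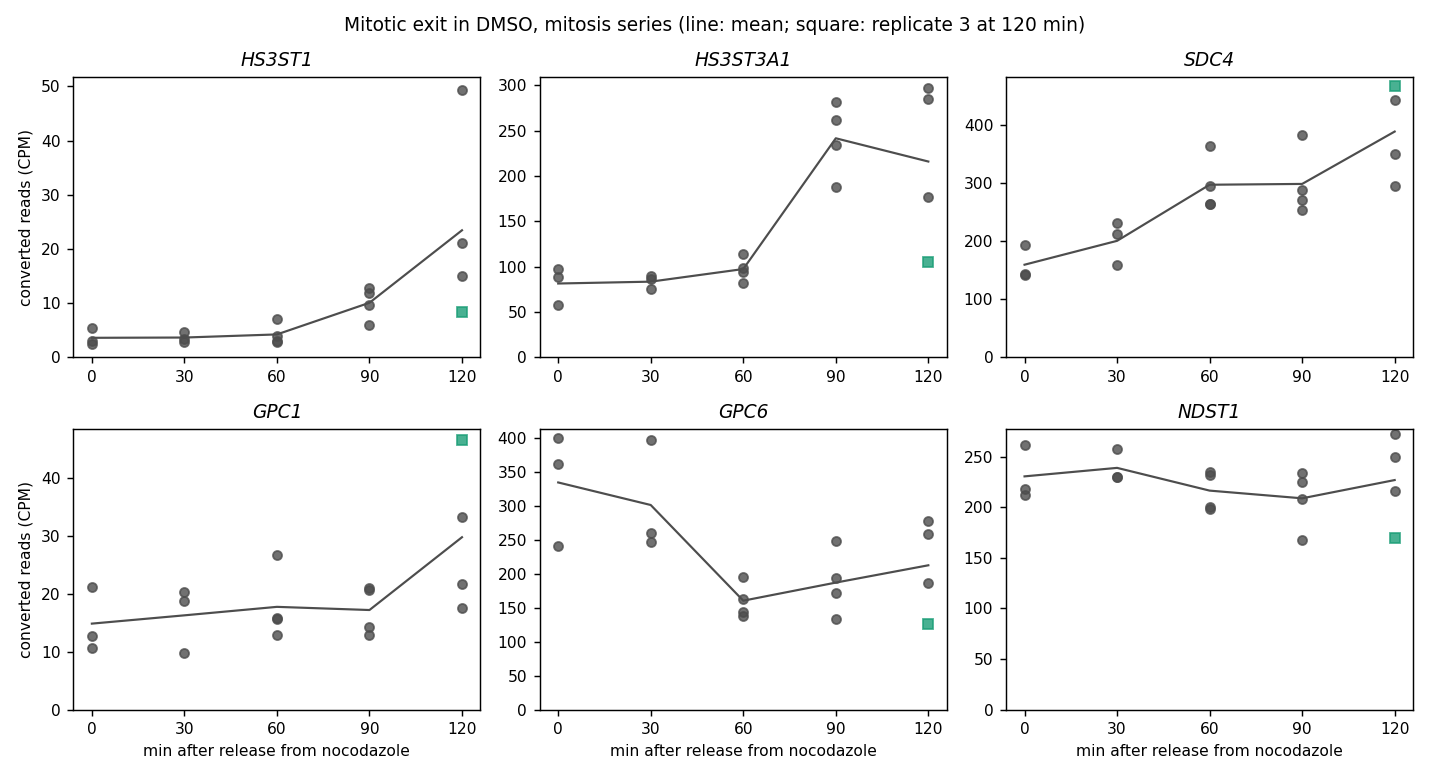
Converted reads (CPM, linear axes from 0) of 6 genes by DMSO library of the mitosis series against minutes after release, with a line through the means and a square for replicate 3 at 120 min, which stood apart. SDC4 is higher from 60 min, HS3ST3A1 and HS3ST1 from 90 min, GPC6 is lower at 60 min and NDST1 stays between 168 and 272 CPM.

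Profiles were compared across the 24 RPE-1 groups with the short label, whose libraries of both series and all times were scaled together for this purpose, apart from the sets above. GPC6 had a profile like those of 3 other members. It correlated with HS3ST3A1 (Pearson's r = 0.87), SDC2 (0.83) and NDST1 (0.88) and inversely with SDC1 (-0.81) and SDC3 (-0.70), and SDC1 correlated with SDC3 (0.84). HS3ST1 followed none of the other members closely, with r from -0.24 (SDC3 and SDC4) to 0.68 (SDC2). The genes over the whole table with profiles most like HS3ST1 were CDC42EP3 (0.94), SOCS5 (0.91), VEGFA (0.90), TMEM200A (0.90) and IL1B (0.90). These are descriptions over 24 group means that share libraries, series and arms, and no p is given.

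The 2 series also differed in vehicle, a comparison that was tested after the values were seen. The choice of the genes did not use it as such but used these same libraries, so its p-values are not independent of the choice. At 120 min with the short label SDC2 stood at 33.9, 62.0, 40.4 and 52.0 CPM in DMSO of the mitosis series and 208, 238 and 219 CPM in DMSO of the release series, higher in the latter by 2.21 ± 0.20 (adjusted p = 7.82e-07). With the long label the difference of SDC2 was 1.81 ± 0.20 (adjusted p = 5.52e-06). GPC6 was higher by 2.02 ± 0.30 (adjusted p = 8.05e-05) with the short and 2.03 ± 0.32 (adjusted p = 0.000156) with the long label.

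With the short label 8 of the 10 members differed between the vehicles, where 40.6% of 14631 genes did: SDC2, GPC6, HS3ST3A1 (1.36) and NDST1 (0.61) were higher in the release series, and SDC1 (-1.29), SDC3 (-1.57), SDC4 (-1.33) and GPC1 (-1.31) were lower. Without the library that stood apart SDC1 was no longer called (-0.71, adjusted p = 0.0692) and HS3ST1 was, at -1.06 ± 0.37 (adjusted p = 0.0364). With the replicate number as a block 4 members were called (1141 genes lower and 1451 higher, in place of 2978 and 2959), and with all reads as library sizes the 4 lower genes were not called. With the long label 5 differed, where 33.7% of genes did: SDC2, GPC6, NDST1 (0.86) and DSEL (0.58) higher and SDC4 (-0.69) lower, and without the replicates numbered 2 only 2 were called (889 genes lower and 1225 higher, in place of 2352 and 2581). The series differ in when vehicle or drug was added, and whether they were run side by side is not given in the sources used here, so schedule and run cannot be told apart. The libraries also differ in other ways: conversions were on 3.75 ± 0.48% of all reads in the mitosis series (SD, n = 4) and 7.11 ± 0.87% in the release series (SD, n = 3) with the short label, and the 7 neuronal markers summed to 265 to 383 and 809 to 1868 CPM with the long label. Their part in these differences was not tested.

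Label length was another comparison that the choice of genes did not make, though the choice used these libraries. In DMSO at 120 min of the mitosis series, SDC1 stood at 117, 99.6, 438 and 207 CPM with the 15 min label and 48.5, 32.7 and 34.6 CPM with the 120 min label, a change of -2.43 ± 0.42 (adjusted p = 0.000233). The highest of these, 438 CPM, was the library that stood apart, and without it the difference was -1.86 ± 0.29 (adjusted p = 9.71e-05). HS3ST3A1 went the other way, from 166, 267, 97.9 and 262 CPM to 367, 407 and 355 CPM (0.91 ± 0.26, adjusted p = 0.00896), a call that was lost without the replicates numbered 1 (0.85, adjusted p = 0.0969).

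SDC4 (-0.67 ± 0.23, adjusted p = 0.0248) and SDC3 (-1.13 ± 0.38, adjusted p = 0.0236) were also lower with the long label. SDC3 was not called without the library that stood apart (-0.82, adjusted p = 0.0755) or without the replicates numbered 2, 3 or 4, nor SDC4 without the replicates numbered 1, 2 or 4. In all, 4 of 10 members were called, where 47.1% of 14631 genes were. In the release series edgeR called 0 of 10, where 22.4% of genes were called, with 1 member at an unadjusted p under 0.05 and 0 called by DESeq2. All these signs are relative to the median gene: with all reads as library sizes the median gene was higher by 2.97 in the mitosis and 2.37 in the release series with the long label, and the changes of SDC1, SDC3 and SDC4 were then above 0.

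The difference between the series in the label effect was itself tested, after the values were seen. SDC1 was called, at -2.26 ± 0.58 (adjusted p = 0.0348), the 1 member of 10, where 6.25% of genes were called. In the release series SDC1 stood at 91.7, 94.8 and 69.6 CPM with the short and 108, 73.0 and 45.2 CPM with the long label. Without the library that stood apart the difference was -1.68 ± 0.41 (adjusted p = 0.0272), and without the replicates numbered 1, 2 or 4 it was not called (adjusted p = 0.139, 0.128 and 0.0523). In these 3 fits 0, 7 and 338 genes were called lower over the whole table, in place of 620. These comparisons use the same 4 groups of DMSO libraries as those between series.

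Between cell types in vehicle with the 120 min label, neurons held more SDC1, SDC2 and SDC3 than cardiomyocytes and less SDC4. SDC4 stood at 48.7 and 55.0 CPM in cardiomyocytes and 10.9 and 10.5 CPM in neurons (-2.27 ± 0.15, adjusted p = 1.55e-07). SDC3 stood at 30.4 and 37.3 CPM and 91.1 and 98.1 CPM (1.49 ± 0.13, adjusted p = 1.77e-06). SDC2 differed by 1.56 ± 0.09 (adjusted p = 5.82e-08) and SDC1 by 1.66 ± 0.20 (adjusted p = 2.79e-05). The values of these 4 genes did not overlap between the cell types, with 2 libraries in each, and the share of all genes without overlap was not counted. The vehicle cultures also differed in markers of other cells. Those of fibroblasts and smooth muscle summed to 582 to 609.8 CPM in cardiomyocytes and 81.2 to 98.4 CPM in neurons, and endothelial ones to 139 to 144 and 3.21 to 5.54 CPM. Pluripotent markers summed to 108 to 120 and 164 to 177 CPM, with NANOG at 0 in neurons. Their part in the differences between these bulk cultures was not tested.

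GPC1 (0.75 ± 0.19, adjusted p = 0.00559) and HS3ST1 (0.88 ± 0.33, adjusted p = 0.0384) were higher and HS3ST3A1 lower (-0.55 ± 0.17, adjusted p = 0.0158) in neurons. DESeq2 did not call HS3ST1 or HS3ST3A1 (adjusted p = 0.119 and 0.0537), and both calls were lost without replicate 2 of the cardiomyocyte DMSO libraries, that of HS3ST1 also without replicate 1 and that of HS3ST3A1 without replicate 2 of the neuron DMSO libraries. In all 7 of 10 were called, where 53.7% of 18645 genes were. DSEL (0.0761), GPC6 (0.153) and NDST1 (0.253), with adjusted p in parentheses, were not called.

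RPE-1 cells held far more HS3ST3A1 and SDC4 than the WTC11-derived cells. HS3ST3A1 ranged over 402 to 734 CPM in the 6 RPE-1 vehicle libraries, against 17.6 and 21.0 CPM in cardiomyocytes and 14.9 and 11.6 CPM in neurons, higher by 5.03 ± 0.16 (adjusted p = 4.04e-13). SDC4 was higher by 3.39 ± 0.19 (adjusted p = 2.87e-10) and SDC3 lower, at -2.84 ± 0.21 (adjusted p = 9.18e-09). SDC3 held 3.81 to 11.1 CPM in RPE-1, 24.8 and 30.6 CPM in cardiomyocytes and 74.8 and 80.8 CPM in neurons.

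SDC1 (2.51), DSEL (1.88), HS3ST1 (1.76), NDST1 (1.46) and GPC1 (1.04) were also higher in RPE-1 and GPC6 was lower (-0.92), each called. SDC2 was not called against the mean of both cell types (-0.17 ± 0.12, adjusted p = 0.195), being higher than in cardiomyocytes (0.61 ± 0.16) and lower than in neurons (-0.96 ± 0.14), both called, and it was called without replicate 1 of the mitosis-series libraries. In all 9 of 10 members were called, where 76.5% of 20617 genes were, and all 10 against each cell type alone, where 68.3% (cardiomyocytes) and 72.6% (neurons) of genes were. Cell type, drug schedule and experiment cannot be told apart in this comparison. The RPE-1 cells were also 120 min past release from nocodazole, and the 4sU dose of the other cells is not given in the sources used here. In DMSO of the mitosis series with the short label, HS3ST3A1 (1.42) and SDC4 (1.28) were higher at 120 min than at 0 min. The part of this rise in the difference between cells was not tested.

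**Figure D4:**
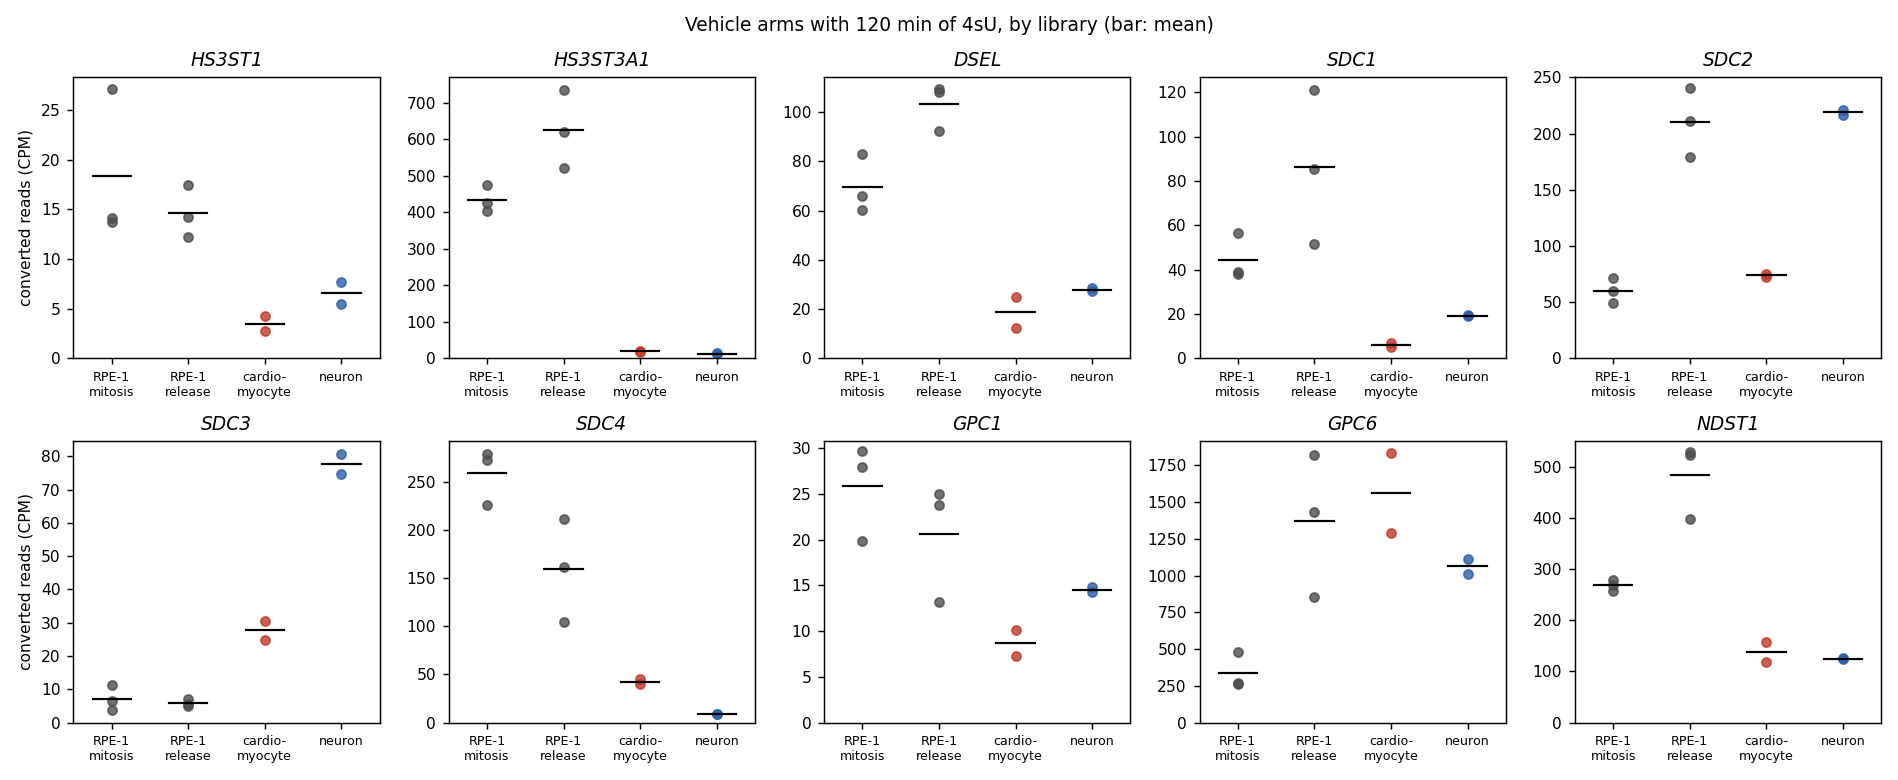
Converted reads (CPM, linear axes from 0) of the 10 genes by DMSO library with the 120 min label in RPE-1 of both series, cardiomyocytes and neurons, with bars at the means. HS3ST3A1 and SDC4 are highest in RPE-1, SDC3 in neurons, and the 2 RPE-1 series differ in SDC2 and GPC6.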

How the data were processed

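Converted and total reads per gene were deposited as counts in 92 tables, 1 per library, each with a conversion rate, a fraction per the file headers that no test used. Per the submitters' processing notes the authors used HISAT, Picard and HTSeq on hg38, whose versions and counting options are not given in the sources used here. Of 49186 genes, 281 on chromosome Y or of X inactivation were left out. Converted reads were tested in 7 sets of libraries with the quasi-likelihood test of edgeR (4.0.16, R 4.3.3), TMM scaling, a filter (filterByExpr, at least 10 reads, total 15), and Benjamini-Hochberg adjustment over all genes tested. DESeq2 (1.42.0), other scalings, no filter, all reads, a replicate block and leaving out libraries were alternatives. The gene set, the lists and the alternatives were chosen with earlier results of these data known. Of the 76 other pathway genes, up to 3 per direction with the largest change among those called were named. The 5 genes most like HS3ST1 were taken from those with a mean log2 CPM of at least 3. In the mitosis series, libraries with the same replicate number deviated together at 0 min, with correlations of 0.195 to 0.564. With the long label these correlations were 0.152 to 0.581. At the other times of this series with the short label they were positive too, from 0.0112 to 0.466. In the release series they were 0.238 to 0.422 at 120 min with the short label and 0.0359 to 0.258 with the long label. At the earlier times of the release series they had both signs, from -0.280 to 0.454. They were 0.0638 in neurons and -0.245 in cardiomyocytes. The test was also run on simulated counts, drawn for each library separately with the spread estimated from these data, and the outcome is not given here. These counts held no tie between same-numbered libraries, so the run cannot show how such a tie affects the test.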

Additional observations from a re-analysis of the deposited data

Results flagged for a closer look

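Among 60 sets of 4 libraries, a single library stood far from the other 3 in 4, where chance gives about 1 in 20, so that 4 of 60 is near the number chance gives. HS3ST1 in dTAGV-1 at 0 min stood at 3.16 CPM (4 reads) in replicate 4, with the nearest library at 1.06 CPM, a gap of 0.840 of the range of the group. HS3ST3A1 in the same library was lowest, at 52.8 CPM with the nearest at 77.6 CPM, a gap of 0.935 of the range. SDC2 in dTAGV-1 at 90 min stood at 83.8 CPM in replicate 2, with the nearest at 58.4 CPM (0.911 of the range). GPC6 in dTAGV-1 at 0 min stood at 419.8 CPM in replicate 3, with the nearest at 238 CPM (0.833 of the range).

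The effect of label length on SDC1 in vehicle differed between the mitosis and the release series by -2.26 ± 0.58 (SE, edgeR quasi-likelihood interaction, adjusted p = 0.0348), where 6.25% of genes were called. In CPM the 3 long-label libraries of the mitosis series lay below the 4 short-label ones, which are not paired with them. The highest of the 4 was the library that stood apart. The call was lost without the replicates numbered 1, 2 or 4, where 0, 7 and 338 genes were called lower in place of 620.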

How the results depend on the processing

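Counts below are of the 10 genes called, unless said to be over all genes. Over 30 to 120 min of the mitosis series the count was 1, and 2 with no filter or with the replicate block. Over all genes 106 were called lower and 71 higher, against 177 and 182 with no filter and 150 and 186 with the block. At 4 to 8 h the count of members was 5, and 3 with all reads or with all reads as library size. Over all genes 1561 of 14570 were called lower and 1321 higher, against 2120 and 1129 of 23167 and 1321 and 730 of 14670. With the long label the count of members was 2 in the mitosis and 3 in the release series, and 1 in each with all reads. Over all genes 63 and 22 of 22210 were then called lower, in place of 339 and 107 of 16571. In cardiomyocytes the count of members was 1, and 2 with no filter, 0 with the replicate block and 0 when fitted alone. Over all genes 680 were called lower, against 1353, 287 and 239. In neurons the count of members was 2, and 4 with no filter, 1 with the replicate block and 4 when fitted alone. Over all genes 310 were called lower, against 629, 134 and 808. In cardiomyocytes the same-numbered libraries deviated in opposite directions (correlation -0.245), and with the numbers crossed in the block, an alternative added after seeing the data, 3 members were called. Over all genes 1399 were then called lower. For label length the count of members was 4 in the mitosis series, with 0 for all reads and 9 for all reads as library size, and 0 in the release series, with 2 for no filter, 10 for all reads as library size and 1 for the replicate block. Under all reads as library size 14402 (mitosis) and 14690 (release) of 15880 genes were called higher, so these counts follow the whole table. Counting all reads, 180 of 21438 genes were called lower and 150 higher in the mitosis series. In the release series no filter gave 1953 lower and 2975 higher of 33147, and the block 2059 and 1877 of 14631. For the difference of the label effects the count of members was 1, with 0 for all reads, 2 for all reads as library size and 2 for the replicate block. Over all genes 620 were called lower and 295 higher, against 0 and 0, 307 and 3501, and 1097 and 674. Between the vehicles of both series the count of members was 8 with the short label, with 5 for all reads as library size and 4 for the replicate block, and 5 with the long label, with 2 for all reads. Over all genes the short label gave 615 lower and 7521 higher of 15880 (library size) and 1141 and 1451 of 14631 (block). The long label gave 2522 and 1415 of 21438 for all reads. With libraries left out in turn the counts of members ran from 1 to 1 (mitosis series, 30 to 120 min), 3 to 5 (4 to 8 h), 1 to 3 (mitosis series, long label), 0 to 3 (release series, long label), 3 to 3 (release series, short label), 1 to 2 (cardiomyocytes), 1 to 3 (neurons), 3 to 4 (120 against 0 min), 2 to 3 and 0 to 0 (label length, mitosis and release series), 0 to 1 (difference of label effects), 6 to 8 and 2 to 5 (between vehicles, short and long label), 5 to 9 (neurons against cardiomyocytes) and 9 to 10 (RPE-1 against both). Counts over all genes shifted too: with the long label 76 to 232 were called lower in the mitosis and 2 to 84 in the release series. With all reads as library size, the long-label changes of the mitosis series turned above 0, to 2.39 (HS3ST1), 2.77 (DSEL), 0.42 (SDC1), 1.78 (SDC3), 2.20 (SDC4) and 2.66 (GPC1), and in the release series to 2.15 (SDC1), 2.06 (SDC2) and 2.30 (SDC4), since this scaling keeps the larger converted share of the long label. The replicate block left the other counts of members within 1.5 times of those given. For the remaining differences the cause was not tested. Few converted reads limit HS3ST1 most, with at most 6 per library at 0 min.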
